A study of Mus musculus with 2 samples.

Results

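These are 50 nuclei of inhibitory neurons from the ventrolateral periaqueductal gray (vlPAG) that carried RNA of Nr4a2 together with Satb1 or the noncoding RNA B020031H02Rik, out of 4959 nuclei with an inhibitory transmitter signature and 13822 nuclei in all. The HFD library held 36 of them and the NFD library 14. Each library was made from the pooled vlPAG of 18 wild-type C57/BL6J mice that received a high-fat diet (HFD) or a normal food diet (NFD) for 7 weeks from 8 weeks of age, so the mice were 15 weeks old when tissue was taken. With 1 pooled library per diet there is no replicate, nuclei of a library share their source, and diet, pool, dissection and capture cannot be told apart. For that reason no p-value is given, and every interval is a 95% interval that covers counting error only.

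The nuclei were chosen on measured RNA. A unique molecular identifier (UMI) tags each captured RNA molecule, and nuclei were kept above 500 UMIs and below a mitochondrial share of 20%. A member needed more UMIs of the inhibitory genes Gad1, Gad2 and Slc32a1 than of the vesicular glutamate transporters Slc17a6, Slc17a7 and Slc17a8, at least 1 UMI of Nr4a2, at least 4 UMIs over Nr4a2, B020031H02Rik and Satb1 together, and none of Th, Six3 or 9030622O22Rik. In the HFD library 2294 nuclei passed the transmitter step, 81 of these had Nr4a2, 38 reached the sum of 4 and 36 also lacked the excluded genes. In the NFD library the same steps left 2665, 49, 16 and 14 nuclei. The 4909 nuclei that passed the transmitter step and were not members (2258 HFD and 2651 NFD) are called other GABA nuclei below.

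Nr4a2 encodes NURR1, an orphan nuclear receptor best known for its part in making and keeping midbrain dopamine neurons, and it is also found in neurons that use other transmitters. Satb1 encodes a chromatin organizer that in the cortex helps somatostatin and parvalbumin interneurons to mature. GABA neurons of the vlPAG take part in feeding and in defensive behaviour, and Gad1 and Gad2 encode the enzymes that make GABA, which Slc32a1 loads into vesicles.

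The genes behind the rule lie apart in the genome. In GRCm38, Nr4a2 is on the minus strand at chr2:57106830-57124003, Satb1 on the minus strand at chr17:51736187-51833290, and B020031H02Rik, annotated as a long intergenic noncoding RNA, on the plus strand at chr8:11948339-12000216. Sox1ot, a noncoding transcript listed as a marker of these neurons, lies 385554 bases further along the same chromosome and strand, overlaps Sox1, and is separated from B020031H02Rik by 4 annotated genes. Ntng1 and Sox2ot are both on chromosome 3, at chr3:109780040-110144011 on the minus strand and chr3:34104270-34682619 on the plus strand. Where annotated genes overlap on a strand, as Sox2ot does with Sox2, reads of the pair may have been dropped or split by the counting.

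After filtering, the HFD library kept 6322 nuclei at a median of 7347.5 UMIs and the NFD library 7500 nuclei at a median of 4504.5 UMIs. Members had medians of 8739.5 UMIs in HFD (4259 to 27345) and 7980 UMIs in NFD (3245 to 29364), closer to each other than those of other GABA nuclei, at 9070 and 5312 UMIs. The deepest member of each library stood apart, since the next held 18030 UMIs in HFD and 14464 UMIs in NFD, and results between diets are given with and without it. The libraries shared 13 cell barcodes, of which 12 were kept in both and none was a member.

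The listed markers of the label are described first. Levels are given as counts scaled to a total of 1000000 UMIs in a nucleus or in a summed group (CPM). Nr4a2 had 55.5, 187 and 1091 CPM in the lowest, median and highest HFD member, against 34.1, 178 and 406 CPM in the NFD members. Satb1 had 0, 343 and 939 CPM in HFD members and 0, 401 and 1102 CPM in NFD members, and was present in 35 of 36 and 13 of 14 nuclei. B020031H02Rik, with no known role, had 0, 113 and 689 CPM against 0, 229 and 661 CPM, and was present in 27 and 11 nuclei. These genes were used to choose the nuclei, so their presence is a description, and the ranges of the libraries overlapped for each.

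The remaining markers were not used by the rule, but they were listed with earlier results of these data known. Their levels are therefore a description too. Ntng1 encodes netrin-G1, a membrane-anchored ligand that binds the synaptic adhesion protein NGL-1. It was present in every member, at 520, 1742 and 4109 CPM in HFD and 622, 1656 and 3622 CPM in NFD. In other GABA nuclei its median was 0 in both libraries. It was still found in 912 of 2258 HFD and 1193 of 2651 NFD nuclei there, at up to 4450 and 5071 CPM. Dpp4, which encodes a surface peptidase that cleaves incretin hormones, had 0, 65.3 and 548 CPM against 0, 85.7 and 402 CPM and was found in 19 HFD and 8 NFD members. Sox1ot had a median of 0 in both libraries and highest values of 394 and 308 CPM, and was found in 16 HFD and 6 NFD members. All 6 listed markers were seen together in 7 HFD and 3 NFD members, and neither Dpp4 nor Sox1ot in 9 HFD and 5 NFD members.

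**Figure D1:**
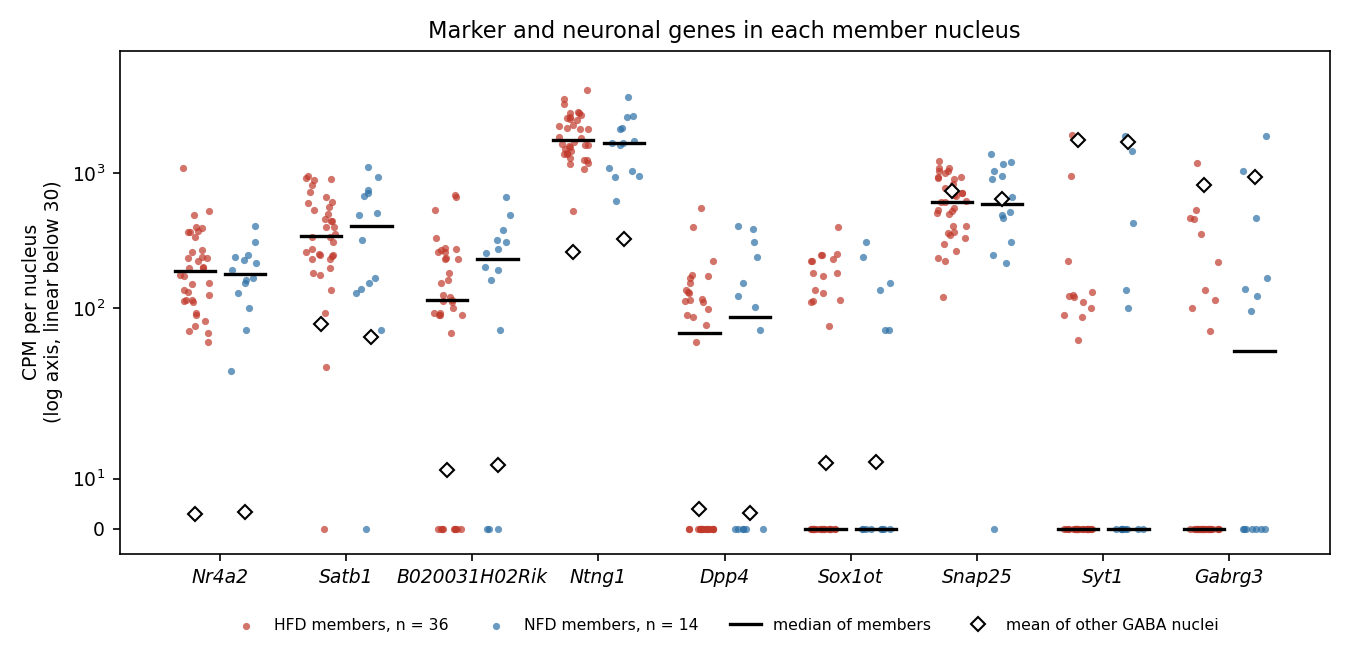
CPM of 6 marker genes and 3 neuronal genes in each of the 36 HFD and 14 NFD members (points), on an axis that is logarithmic above 30 CPM and linear below. Bars are medians over members and diamonds are the means of other GABA nuclei in the same library. Ntng1 lies above its diamond in every member, Snap25 spreads around its diamond, and most members have no UMI of Syt1 or Gabrg3.

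The rule required the inhibitory genes to outnumber the glutamate transporters, so their balance in members describes the selection. That requirement was met by Gad2 more than by the vesicular transporter. Gad2 was found in all 36 HFD and in 13 of 14 NFD members and Gad1 in 26 and 8. Slc32a1 was found in 5 and 4 members, at 16.8 CPM in HFD and 36.6 CPM in NFD, beside 37.3 and 59.9 CPM in other GABA nuclei. Slc17a6 UMIs were present in 1 HFD and 2 NFD members and no member had Slc17a7 or Slc17a8. The dopaminergic list, with Th at 0 by the rule and Pitx3 also at 0, summed to 19.5 CPM in HFD and 36.6 CPM in NFD members. In other GABA nuclei it summed to 170 and 115 CPM, of which Th, not restricted there, gave 1.65 and 2.25 CPM. Its UMIs were of Slc6a3, Slc18a2 and Ddc in HFD members and of Ddc in NFD members. The serotonergic list, with Slc6a4 and Fev at 0, summed to 8.38 and 43.9 CPM against 274 and 173 CPM. Of the glycine transporter genes, Slc6a5 had no UMI in members and Slc6a9 had 2 and 1. Among glial and vascular genes, Gja1, Slc1a3, Gfap, Mag, Mog, Pdgfra, Csf1r, Cldn5 and Pdgfrb were also at 0.

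Lists of markers of other cells were mostly at or below their level in other GABA nuclei, with exceptions in the oligodendrocyte and cholinergic lists. The oligodendrocyte list, in which 3 of 6 genes were detected in each library, summed to 142 CPM in HFD and 117 CPM in NFD members, beside 91.4 and 122 CPM in other GABA nuclei, with Mag and Mog at 0. Most of this was St18, with 38 and 13 UMIs, a gene also transcribed in neurons. The microglial list (2 and 3 of 6 genes, Csf1r at 0) summed to 41.9 and 51.3 CPM against 64.0 and 70.2 CPM, and the astrocyte list (3 and 2 of 6 genes, Gja1 at 0) to 19.5 and 14.6 CPM against 109 and 80.4 CPM. The cholinergic list summed to 19.5 and 29.3 CPM against 1.97 and 3.55 CPM, and all its UMIs, 7 in HFD and 4 in NFD, came from 1 nucleus of each library. Over single members the summed list ran between 0 and 5 UMIs for astrocyte and oligodendrocyte genes and between 0 and 2 for microglial genes.

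The shared neuron markers split. Snap25, a component of the vesicle fusion machinery, had 637 CPM in HFD and 732 CPM in NFD members against 729 and 645 CPM in other GABA nuclei, and was found in 36 and 13 members. Stmn2 was also similar, at 184 and 154 CPM against 185 and 183 CPM. Rbfox3, which encodes the NeuN antigen, was lower, at 41.9 and 36.6 CPM against 158 and 150 CPM. Syt1, which encodes the calcium sensor of fast vesicle release at chr10:108497650-109010982 on the minus strand, was lower as well, at 184 and 600 CPM against 1932 and 1805 CPM.

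Nearly all Syt1 came from a few deep members. It had no UMI in 24 of 36 HFD and 9 of 14 NFD members. The HFD members with 27345 and 15292 UMIs held 26 and 29 of its 66 UMIs, while no other HFD member held more than 2. The NFD members with 29364 and 14464 UMIs held 55 and 21 of its 82 UMIs, while the others held at most 4. Gabrg3, a GABA-A receptor subunit gene, was at 0 in the median HFD member and 47.6 CPM in the median NFD member, and 55 of its 71 NFD UMIs came from the deepest nucleus. After each nucleus was thinned to 2000 UMIs, Syt1 was left in 8.33% of HFD members (1.75 to 22.5) and 21.4% of NFD members (4.66 to 50.8), against 78.4 and 81.3% of other GABA nuclei, with 84 HFD and 128 NFD shallower nuclei left out. Snap25 was left in 69.4% (51.9 to 83.7) and 64.3% (35.1 to 87.2) of members, against 70.4 and 69.8%.

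**Figure D2:**
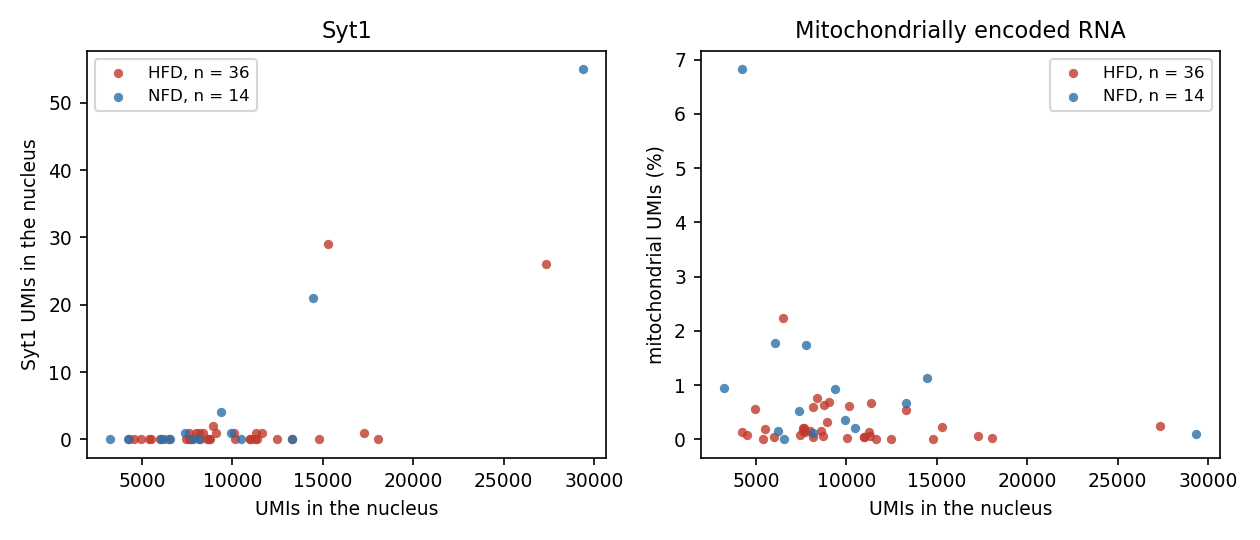
Syt1 UMIs (left) and the percentage of mitochondrially encoded UMIs (right) in each member, plotted against the UMIs of that nucleus, for 36 HFD and 14 NFD members. Syt1 exceeds 4 UMIs in 2 HFD and 2 NFD nuclei, all of them deep, and the mitochondrial share is highest in an NFD nucleus at 6.82%.

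To see whether nuclei picked on a few genes also stood together on the rest of the transcriptome, all 4959 GABA nuclei were clustered without the rule genes and the listed markers. Of 26 clusters, a single cluster, number 17, took 34 of 36 HFD members (94.4%, 81.3 to 99.3) and 12 of 14 NFD members (85.7%, 57.2 to 98.2). It also held 37 HFD and 41 NFD nuclei that were not members, of which 24 HFD and 31 NFD nuclei had no Nr4a2 UMI. Those nuclei carried Ntng1 at 1691 CPM in HFD and 1665 CPM in NFD, Adam12 at 212 and 228 CPM and Dpp4 at 125.4 and 52.6 CPM, and they had little Syt1, at 109 and 193 CPM. Nr4a2 itself was at 51.4 and 48.2 CPM in them, and their median depth was 7222 UMIs in HFD and 4921 UMIs in NFD. The rule thus took 34 of the 71 cluster nuclei in HFD and 12 of the 53 in NFD.

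The members outside the cluster were 2 in each library, with 27345 and 15292 UMIs in HFD and 29364 and 7794 UMIs in NFD, against medians of 8654.5 and 7776.5 UMIs for members inside. Summed over them, Syt1 was at 1290 CPM in HFD and 1480 CPM in NFD, against 34.9 and 272 CPM in members inside the cluster, and all of the NFD Syt1 came from the deeper nucleus, the other having none. Gabrg3 was at 563 and 1695 CPM, against 76.1 and 80.5 CPM, with 55 and 8 UMIs in the NFD nuclei. Ntng1 was still present in all of them, at 1243 and 969 CPM. Whether these barcodes held more than 1 nucleus was not tested, and doublets were not removed.

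Members made up 1.57% of GABA nuclei in the HFD library (1.10 to 2.17, Clopper-Pearson) and 0.525% in the NFD library (0.287 to 0.880). The rule needs 4 UMIs of low genes, so this share moves with depth. Among GABA nuclei with up to 5000 UMIs members were 3 of 350 in HFD (0.857%, 0.177 to 2.48) and 2 of 1232 in NFD (0.162%, 0.0197 to 0.585). Above 5000 and up to 10000 UMIs they were 18 of 967 (1.86%, 1.11 to 2.93) and 8 of 1056 (0.758%, 0.328 to 1.49), and above 10000 UMIs 15 of 977 (1.54%, 0.862 to 2.52) and 4 of 377 (1.06%, 0.290 to 2.69). The HFD share was the higher in each depth range, with intervals that overlapped in each. When every nucleus was thinned to 2000 UMIs before the rule was applied, 2 of 1414 HFD nuclei (0.141%, 0.0171 to 0.510) and 2 of 1714 NFD nuclei (0.117%, 0.0141 to 0.421) passed, and a difference between the libraries was not detectable at this depth.

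The cluster, which does not rest on Nr4a2, gave a gap that was smaller as a ratio but not in percentage points. It held 71 HFD nuclei, 3.10% of GABA nuclei (2.42 to 3.89), and 53 NFD nuclei, 1.99% (1.49 to 2.59). In nuclei with up to 5000 UMIs its share was 2.00% in HFD (0.808 to 4.08) and 1.95% in NFD (1.252 to 2.88). Above 5000 and up to 10000 UMIs it was 4.24% (3.06 to 5.71) against 2.27% (1.46 to 3.36), and above 10000 UMIs 2.35% (1.5 to 3.51) against 1.33% (0.432 to 3.07). The size of the leading cluster moved with the clustering. At a resolution of 0.5 it held 166 HFD and 137 NFD nuclei. With each library clustered on its own, the cluster with the most members held 94 HFD and 237 NFD nuclei. These clusters come from separate runs and need not match, so their sizes give no direction between the libraries. Over all GABA nuclei, members included, Nr4a2 had 5.23 CPM in HFD and 3.52 CPM in NFD, a log2 ratio of 0.57 (0.12 to 1.04). Members, chosen on Nr4a2, held 71 of its 129 HFD UMIs and 21 of its 60 NFD UMIs. Without members its ratio was 0.05 (-0.56 to 0.67), so the first ratio is no separate reading of the member share. Over all GABA nuclei Satb1 had 75.2 and 62.5 CPM (0.27, 0.16 to 0.38) and Dpp4 4.42 and 3.23 CPM (0.45, -0.03 to 0.95). B020031H02Rik had 13.1 and 13.8 CPM (-0.08, -0.33 to 0.17) and Sox1ot 12.8 and 14.1 CPM (-0.14, -0.39 to 0.11). Ntng1 had 285 and 331 CPM (-0.22, -0.27 to -0.17), so the markers gave ratios on both sides of 0.

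**Figure D3:**
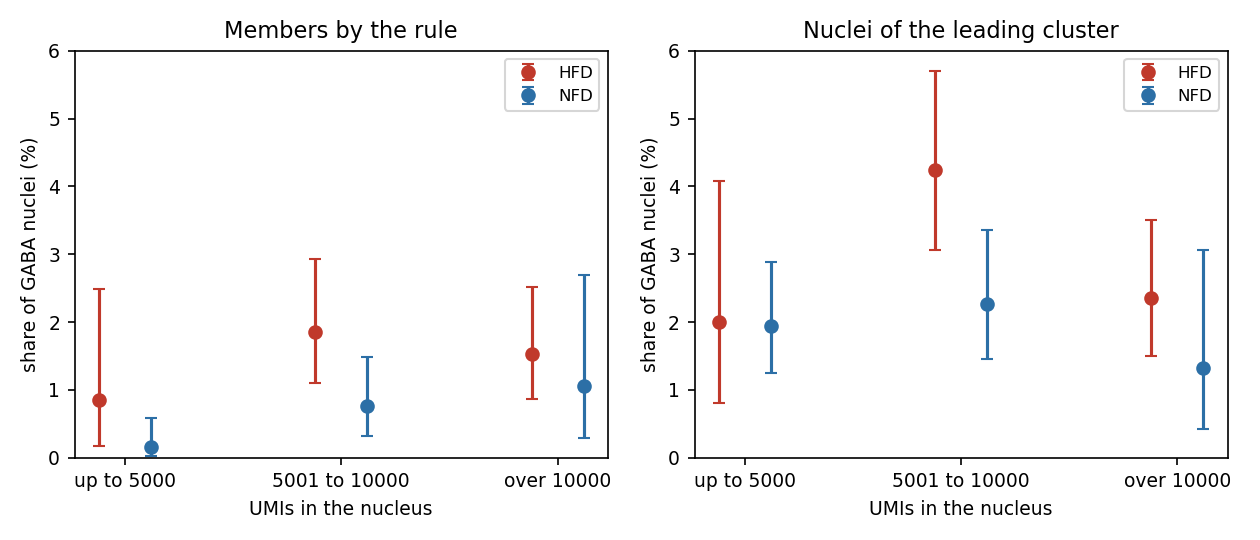
Share of GABA nuclei, in percent, that met the rule (left) or fell in the leading cluster (right), in the HFD and NFD libraries, by the UMIs of the nucleus, with Clopper-Pearson 95% intervals. Members reach 1.86% in HFD and 0.758% in NFD above 5000 and up to 10000 UMIs, and cluster shares at up to 5000 UMIs are 2.00% and 1.95%.

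Beyond the rule, Adam12, Sox2ot, Ntng1, Galntl6 and Cntn4 stood highest over other GABA nuclei among genes with at least 100 UMIs in members. UMIs were summed over members and over other GABA nuclei in each library, and log2 ratios of CPM were taken after adding 10 CPM to both, which understates low genes. Of 13423 genes, 90 were at least 2-fold higher in members in both libraries (0.67%) and 391 at least 2-fold lower (2.91%). The lower count depends on the amount added and on depth, since with 1 CPM added 174 genes were higher and 1825 lower, and 1356 were lower after thinning. With 10 CPM added, a gene under 10 CPM in other GABA nuclei could not be 2-fold lower. The 2.91% is therefore a low yardstick for better expressed genes. The median gene was at -0.17 in HFD and -0.25 in NFD. Because the members were picked on RNA of these same nuclei, these are descriptions with no test.

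Adam12, a membrane metalloprotease gene at chr7:133883199-134232146, had the largest ratio held by both libraries among those genes. It had 0, 232 and 665 CPM in HFD members and 0, 318 and 677 CPM in NFD members, and summed to 249 and 293 CPM against 18.6 and 23.4 CPM in other GABA nuclei, a log2 ratio of 3.18 in each library. Galntl6, of the family of enzymes that start mucin-type O-glycans, had 3560, 13934 and 20272 CPM in HFD members and 7190, 15901 and 24767 CPM in NFD members. It summed to 13075 and 13736 CPM against 2696 and 2480 CPM, log2 ratios of 2.27 and 2.46. Cntn4, a contactin of the immunoglobulin adhesion family, had 91.3, 2770 and 4683 CPM against 1489, 3581 and 5125 CPM, and its log2 ratios over other GABA nuclei were 2.24 and 2.44. Sox2ot had 451, 2302 and 4730 CPM against 225, 2745 and 4133 CPM, with log2 ratios of 2.73 and 2.50. Of these genes, Galntl6, Cntn4 and Sox2ot had a UMI in every member, and only Adam12 was missing from some, 5 in HFD and 2 in NFD.

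Ntng1, by the same measure, had log2 ratios of 2.81 and 2.31. Cadps2, which primes dense-core vesicles for release, had 2.09 and 2.05, and Pex5l, a partner of HCN pacemaker channels, 2.26 and 1.93. Trpc6, a cation channel gene, had 2.87 and 1.91, and Serpini1, which encodes neuroserpin, an inhibitor of tissue plasminogen activator, 2.42 and 1.75. The protocadherin gene Pcdh9 had 2.21 and 1.73, the cell adhesion gene Opcml 1.66 and 1.82, Nwd2 1.86 and 2.27, and the transcription factor gene Bcl11a 1.81 and 1.62. Gm26905, a long noncoding RNA annotated on the strand opposite Galntl6, had 2.03 and 2.16. Whether strand was used in counting is not stated in the sources used here, and whether its reads were kept apart from those of Galntl6 was not tested.

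The genes lowest against other GABA nuclei mostly had few or no UMIs in members. Otx2os1, transcribed opposite Otx2, had 2 UMIs in HFD members and 0 in NFD members, against 234 and 208 CPM in other GABA nuclei, and Glra2, a glycine receptor subunit gene, 1 and 0 UMIs against 98.4 and 76.0 CPM. Tmem132d had 3 and 0 UMIs against 214 and 187 CPM, Nnat 1 and 0 UMIs against 128 and 112 CPM, and 9530026P05Rik, with no known role, none in either library. The transcription factor gene Zfhx3 had 89.4 and 51.3 CPM against 772 and 838 CPM, but its UMIs lay in 6 HFD members and 1 NFD member, with 27 of 32 HFD UMIs in a single nucleus. Kcnip1, a modulator of Kv4 potassium channels, had 11.2 and 29.3 CPM against 331 and 299 CPM.

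**Figure D4:**
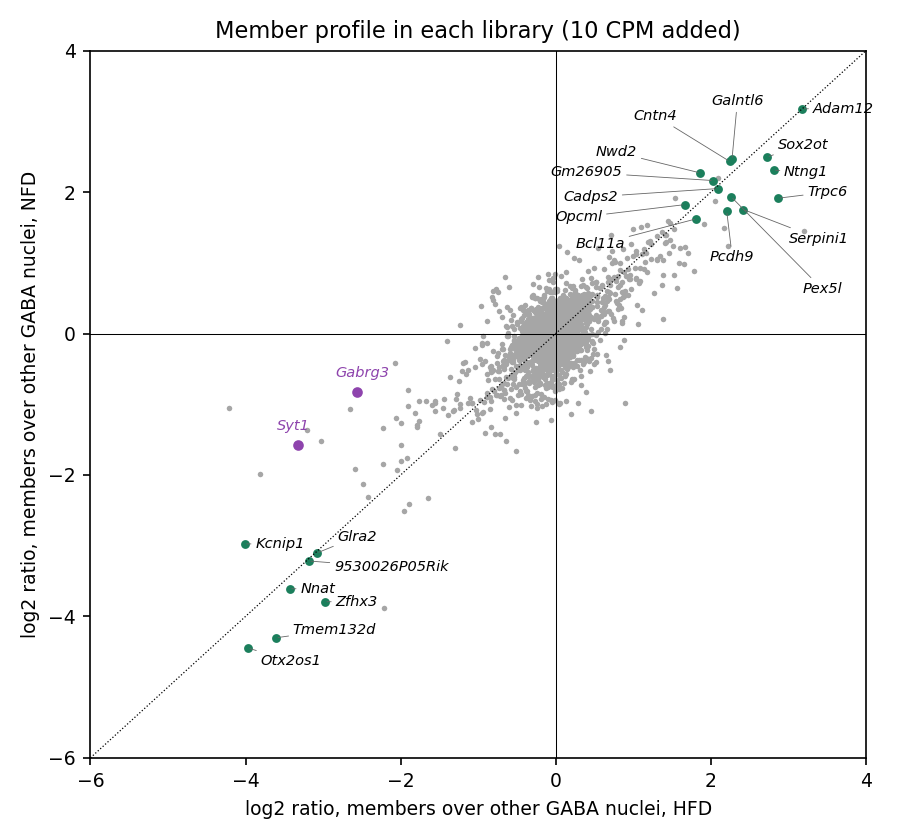
Log2 ratio of CPM in members over other GABA nuclei, with 10 CPM added, in the HFD library (horizontal) and the NFD library (vertical). Genes shown have at least 50 UMIs in members or are among the green points, and rule genes and some others are left out. Green points are the named genes most above and most below 0 in both libraries, the dotted line marks equal ratios, and Syt1 and Gabrg3 (purple) lie farther below 0 in HFD than in NFD.

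Lists of genes by function were then compared in the same way. The 2.91% of all genes includes genes too low to be called lower. A list count above it is therefore a description and is not read as a trait of that list. Of 54 lineage transcription factor genes measured, 6 were at least 2-fold higher in members in both libraries and 12 at least 2-fold lower, beside 0.67% and 2.91% of all genes. The higher ones included Nfib, Sox5, Ebf1, Ebf3 and Bcl11a. Nfib had 1648 and 1406 CPM against 597 and 458 CPM, and Sox5 257 and 256 CPM against 93.6 and 88.8 CPM. The lower ones included Pax5, at 11.2 and 43.9 CPM against 186 and 156 CPM, and Pax2, Pax8, Lhx1, Tfap2b, Otx2 and Onecut2, which had no UMI in any member and at most 46.6 CPM in other GABA nuclei. Among 12 NR4A and immediate early genes, 1 besides the rule gene was higher, Nr4a1, which encodes a close relative of NURR1, on 11 and 4 UMIs at 30.7 and 29.3 CPM against 10.2 and 7.10 CPM.

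Several receptor genes for inhibitory transmitters were lower than in other GABA nuclei. Of 20 GABA and glycine receptor genes, 6 were at least 2-fold lower in both libraries and none higher, beside 0.67% higher and 2.91% lower of all genes, with a list median of -0.91 in HFD and -0.53 in NFD. Gabrb2 had 47.5 and 73.2 CPM against 454 and 397 CPM, and Gabra2 36.3 and 51.3 CPM against 290 and 263 CPM. Glra3 and Gabrg1, with 5 UMIs each in HFD members and none in NFD members, and Glra2 were also among the lower genes.

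Glutamate receptor genes went both ways. Of 16 ionotropic subunit genes, 4 were at least 2-fold lower and none higher, beside 0.67% higher and 2.91% lower of all genes, among them Gria1 at 201 and 132 CPM against 772 and 746 CPM and Grik1 at 19.5 and 80.5 CPM against 335 and 370 CPM. Gria2, which sets the calcium permeability of AMPA receptors, was at 1653 and 1567 CPM against 1197 and 1201 CPM. Of 7 metabotropic receptor genes 1 was higher, Grm7, a presynaptic receptor gene at 5275 and 4986 CPM against 1980 and 2053 CPM.

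Channel genes were read against the same shares, 0.67% higher and 2.91% lower of all genes. Of 31 potassium channel genes 1 was at least 2-fold higher, Kcnip4, at 13655 and 9643 CPM against 3606 and 3272 CPM, and 7 were lower, including Kcnip1 and Kcnd3. Of 19 calcium channel subunit genes, Cacna1e (1162 and 1062 CPM against 533 and 481 CPM) and Cacna2d3 (1125 and 1171 CPM against 490 and 471 CPM) were higher. Cacna2d1, the subunit gene the study followed further, was lower, at 55.9 and 73.2 CPM against 371 and 317 CPM, and was found in 3 HFD and 3 NFD members. None of the 13 sodium and HCN channel genes was 2-fold apart in both libraries.

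Receptors for serotonin and feeding signals were mixed. Htr2a, a serotonin receptor gene, had 123 and 73.2 CPM against 19.6 and 19.5 CPM, with UMIs in 17 HFD and 5 NFD members, and Htr1b, Htr1f and Htr4 were lower, for 1 higher and 3 lower of 7. Of 12 feeding hormone receptor genes 3 were lower and none higher, beside 0.67% higher and 2.91% lower of all genes. Calcr, the calcitonin receptor gene, had no UMI in members, Prlr had 1 in each library, and Ghr had 39.1 and 29.3 CPM against 219 and 188 CPM. The insulin and IGF receptor genes Insr (159 and 139 CPM against 147 and 154 CPM) and Igf1r (232 and 300 CPM against 225 and 212 CPM) were within 2-fold. Among 13 neuropeptide genes, Sst was lower, with 0 and 1 UMIs in members against 95.4 and 94.5 CPM, and Nts was higher at 22.3 and 43.9 CPM against 5.6 and 7.87 CPM, in 4 HFD members and 1 NFD member.

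Guidance, adhesion and vesicle lists held both higher and lower genes, where 0.67% of all genes were higher and 2.91% lower. Of 28 axon guidance genes Robo2 and Epha4 were higher and 6 were lower, with the netrin receptor gene Unc5d at 64.2 and 183 CPM against 1273 and 1105 CPM. Of 22 cadherin genes Pcdh9 was higher and 10 were lower. Of 13 contactins and partners Cntn4 was higher and Cntnap5b and Cntnap5c were lower. Lrrc4c, which encodes NGL-1, the binding partner of netrin-G1, was within 2-fold, at 2279 and 3002 CPM against 2980 and 2691 CPM, and Ntng1 alone of the 4 netrin-G and NGL genes measured was 2-fold higher. Of 20 vesicle release genes, Syt4 and Unc13c were higher and Syt1 and Sv2b lower.

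Members also differed among themselves. Over 254 genes with at least 200 UMIs and no nucleus holding more than 10% of them, the variance beyond counting noise divided by the squared mean had a median of 0.0822 in HFD and 0.0699 in NFD. Nrg1, which encodes the growth factor neuregulin-1, stood at 0.491 and 0.618, with 549, 5775 and 20449 CPM in the lowest, median and highest HFD member and 1206, 6823 and 20361 CPM in the NFD members. Nwd2 had 0.908 and 0.398 and was absent from 11 HFD and 3 NFD members. Cadps2 (0.391 and 0.403), Pex5l (0.359 and 0.449), Sgcd (0.298 and 0.371), Prkg1 (0.626 and 0.373), Lrp1b (0.318 and 0.290) and Plcb1 (0.483 and 0.255) completed the 8 most variable of these genes by the lower of both values.

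The edge of the rule did not separate nuclei sharply. The 10 nuclei whose sum was 4, just inside, had Ntng1 at 1901 CPM, Galntl6 at 15816 CPM and Syt1 at 28.4 CPM. The 10 with a sum of 5 had 1427, 12315 and 856 CPM of these genes. Of their 87 Syt1 UMIs, 29 came from the HFD member with 15292 UMIs and 55 from the NFD member with 29364 UMIs, both outside the leading cluster. The 12 nuclei with a sum of 3, just outside the rule, had 1359, 11112 and 282 CPM of Ntng1, Galntl6 and Syt1. The 31 nuclei with a sum of 1 differed, with Ntng1 at 479 CPM and Syt1 at 2313 CPM.

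Between the libraries, members had more Htr2c, Gpc5, Pcdh9 and Kcnip4 RNA and less mitochondrially encoded RNA in HFD. UMIs were summed over the 36 HFD and 14 NFD members, and a gene was counted where the whole interval of the log2 ratio of CPM lay beyond 0.32 in either direction, a bound referred to below as the margin. Of 746 genes with at least 100 UMIs, 9 were higher in HFD (1.21%) and 15 lower (2.01%), and the median gene was at 0.02. The interval treats UMIs as independent and so leaves out the spread between nuclei, which was wide.

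Htr2c encodes a serotonin receptor through which serotonin reduces appetite. It had 928, 2777 and 5400 CPM in the lowest, median and highest HFD member and 711, 1667 and 4164 CPM in the NFD members, was present in every member and overlapped widely between the libraries. Its log2 ratio was 0.75 (0.54 to 0.96), 0.71 without the deepest member of each library, and 0.05 in other GABA nuclei. Gpc5, a glypican heparan sulfate proteoglycan gene, had 0, 1146 and 8272 CPM against 0, 408 and 4586 CPM, with a log2 ratio of 1.04 (0.76 to 1.33), 0.86 without the deepest members and -0.03 in other GABA nuclei. It was missing from 6 HFD and 5 NFD members.

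Kcnip4, a modulator of Kv4 potassium channels, had 1905, 13306 and 29744 CPM in HFD members and 4133, 7487 and 19282 CPM in NFD members, with a log2 ratio of 0.50 (0.41 to 0.59). Pcdh9 had 4747, 19328 and 32391 CPM against 7581, 13156 and 26541 CPM, with a log2 ratio of 0.48 (0.41 to 0.56). Without the deepest members they were at 0.39 and 0.37, and their intervals no longer cleared the margin. In other GABA nuclei their log2 ratios were 0.14 and 0.00.

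Mitochondrially encoded RNA was lower in HFD members for each of the 8 such genes with at least 50 UMIs, with a median log2 ratio of -1.59 beside 0.03 for all 1729 genes at that minimum and -0.20 for the same 8 genes in other GABA nuclei. All 6 that could be counted at 100 UMIs were among the 15 lower genes. Mt-Rnr2, a mitochondrial ribosomal RNA, had 0, 176 and 2461 CPM in HFD members against 122, 1042 and 13030 CPM in NFD members, and a log2 ratio of -1.78 (-2.10 to -1.47). Mt-Cytb, a respiratory chain gene, had 0, 264 and 6767 CPM against 0, 1476 and 14215 CPM, and -1.52 (-1.78 to -1.26). For mt-Nd1, mt-Nd2 and mt-Nd4, which encode complex I subunits, the log2 ratios were -1.58, -1.59 and -1.41.

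The mitochondrial share of a nucleus had a median of 0.147% in HFD members (0 to 2.25) and 0.592% in NFD members (0.0153 to 6.82). A single NFD nucleus held the 6.82%, the next being 1.77%, and without it the median log2 ratio of the 8 genes was -1.14. In other GABA nuclei the medians were 0.274 and 0.346%. In the non-member nuclei of the leading cluster, compared after the members' values were seen, they were 0.236 and 0.264%, and there 5 of the 6 genes lay below 0 but none had an interval beyond the margin. Over all 15 mitochondrially encoded genes, members lay below other GABA nuclei in HFD and above them in NFD, with medians of -0.77 and 0.52.

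Several lower genes hung on the deepest NFD nucleus, which held 21.5% of the NFD members' UMIs. Cdh18, a cadherin gene, had 0, 385 and 1552 CPM in HFD members and 0, 314 and 2418 CPM in NFD members, and its log2 ratio of -0.76 (-1.09 to -0.43) was -0.04 without the deepest members. Cntn5, a contactin gene, had 0, 131 and 1894 CPM against 0, 581 and 2282 CPM, and its ratio of -0.86 (-1.19 to -0.53) was -0.44. Gabrg3 had a ratio of -1.96 and -0.23 without the deepest members, and Syt1 -1.70 and -1.06, where its interval of -1.80 to -0.30 no longer cleared the margin. Without the deepest members 7 genes were higher and 8 lower of 650, and 12 of the 24 genes were shared.

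The other genes past the margin, named here because their counts are few and chosen after their values were seen, were Prkd1, a protein kinase D gene (1.61, 0.80 to 2.53), the formin gene Fmn2 (1.26, 0.64 to 1.95), Vwc2l (1.22), the dystrobrevin gene Dtnb (1.12) and Ahcyl2 (1.02) among those higher. Among those lower were Usp9x (-0.88), Unc5c (-1.04), Nell1 (-1.06), B3galt1 (-1.08), A230006K03Rik (-1.32) and mt-Rnr1 (-1.63). Prkd1 had UMIs in 21 of 36 HFD members and 5 of 14 NFD members, at medians of 194 and 0 CPM.

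The nuclei of the leading cluster that missed the rule gave a second reading in the same libraries, made after the values of members were seen. Of the 9 higher genes 7 were above 0 in the 37 HFD and 41 NFD non-members, and of the 15 lower genes 11 were below 0. In all other GABA nuclei 18 of the 24 genes also had the members' direction, so such agreement was not particular to the cluster. Gpc5 was the only one of these 24 past the margin in the cluster's non-members. It had 1398 CPM in HFD and 850 CPM in NFD there, with a log2 ratio of 0.72 (0.47 to 0.97). Htr2c had 3546 and 2734 CPM, 0.38 (0.23 to 0.52), and Pcdh9 and Kcnip4 were at 0.15 and 0.23. Syt1 was at -0.82 (-1.51 to -0.14) on 34 and 44 UMIs.

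**Figure D5:**
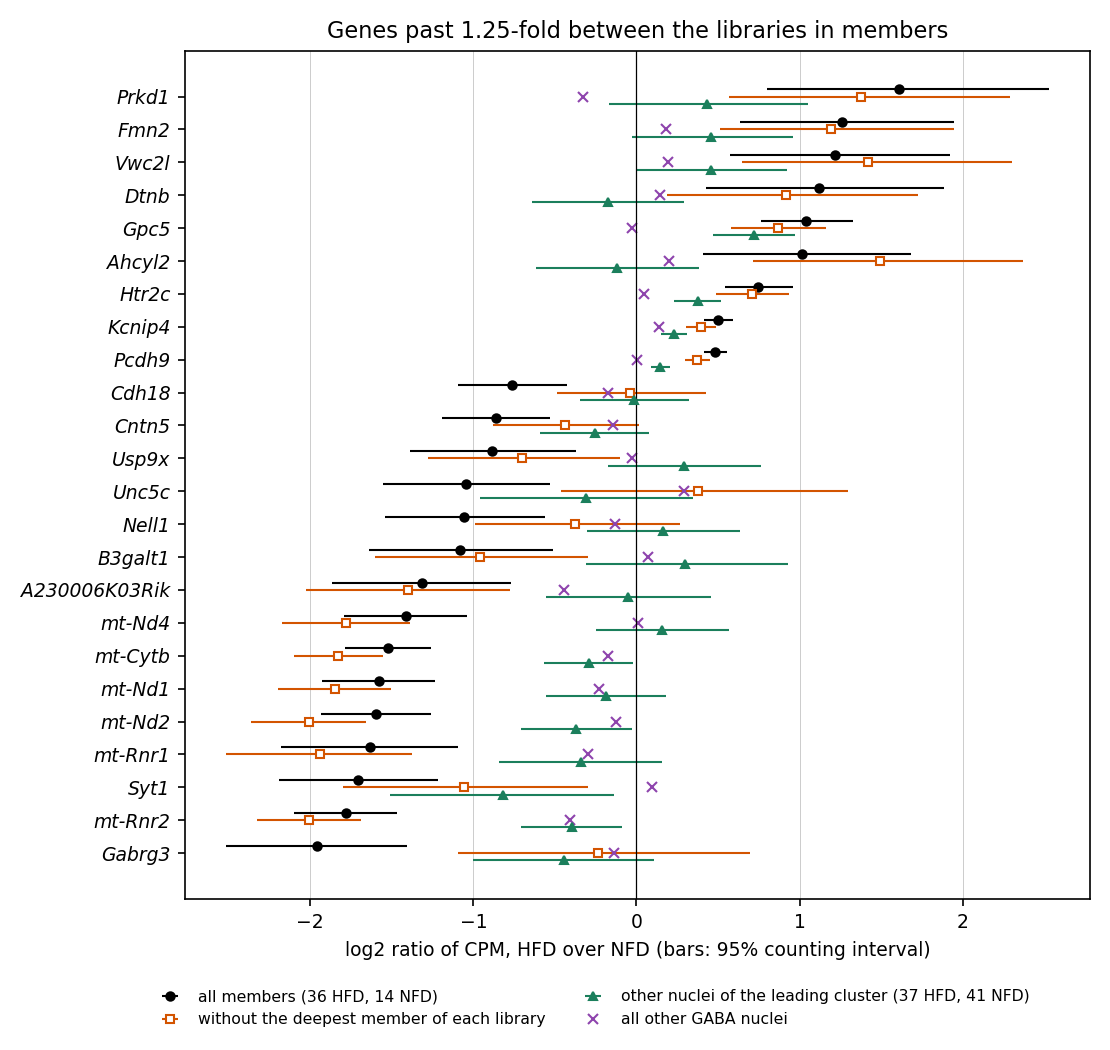
Log2 ratio of CPM, HFD over NFD, for the 24 genes whose interval lay beyond the margin in members (black, 36 HFD and 14 NFD nuclei), with the same genes without the deepest member of each library (orange), in the 37 HFD and 41 NFD other nuclei of the leading cluster (green) and in all other GABA nuclei (crosses). Bars are 95% counting intervals. Htr2c and Gpc5 stay above 0 in members and in the cluster, and Cdh18 and Gabrg3 move toward 0 without the deepest members.

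The genes that chose the members are given between the libraries as a description, since the rule bounds their levels in both. Nr4a2 had 198 CPM in HFD and 154 CPM in NFD members (log2 ratio 0.37, -0.35 to 1.14), Satb1 377 and 351 CPM (0.10, -0.38 to 0.61) and B020031H02Rik 165 and 234 CPM (-0.51, -1.15 to 0.16). Gad2 had 377 and 373 CPM (0.01, -0.46 to 0.51). Ntng1, which the rule did not use, had 1891 and 1633 CPM (0.21, -0.01 to 0.44). Of 16 lists with at least 3 genes at 50 UMIs, the mitochondrial list was the 1 whose median lay past 0.32.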

How the data were processed

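Nuclei of the pooled vlPAG of 18 mice per diet were captured in droplets, with a target of 8000, in 1 library per diet. The deposited values are UMI counts of each gene in each nucleus, made by the authors with bcl2fastq 5.01 and Cell Ranger (4.0.0 in the matrix header) on GRCm38, with Seurat 3.1.1 used downstream. Treatment of intronic reads was not given in the sources used here. Counts were filtered as in the study's methods, at more than 500 UMIs and under 20% mitochondrial UMIs, and no doublet caller was run. The members and the 33 gene lists were chosen with earlier results of these data known.

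UMIs were summed per library and group and divided by the group total. CPM carry exact Poisson intervals, ratios exact conditional binomial intervals and shares Clopper-Pearson intervals, at 95%. A member contrast needed 100 UMIs per gene, and lists 50. GABA nuclei were clustered (Leiden, seed 1) on 1996 variable genes without integration. Python 3.11.15, numpy 2.4.6, scipy 1.17.1, pandas 2.3.3, scanpy 1.11.5, igraph 0.11.9 and matplotlib 3.10.9 were used. Only the step that forms ratios and their intervals was tested on simulated counts, which were independent and had no spread between nuclei. Positions come from an annotation of the authors' build, in which all 55450 gene IDs were found.

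Named genes are those of the rule and the markers, the 14 most above and 8 most below 0 against other GABA nuclei, up to 10 in each direction between diets at 200 UMIs, in each list up to 4 with the most UMIs and 4 with the largest ratios, and the 8 most variable. List members 2-fold from other GABA nuclei were named after their values were seen. Some genes that these rules name are not reported here.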

Additional observations from a re-analysis of the deposited data

Results flagged for a closer look

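In 5 genes the ratio between diets ran in opposite directions in members and in other GABA nuclei of the same libraries, with each interval on its own side of 0, and the difference was not tested. Prkd1 had a log2 ratio of 1.61 in members and -0.33 (-0.50 to -0.15) in other GABA nuclei, and Gpc5 1.04 and -0.03 (-0.05 to -0.0025). B3galt1 had -1.08 in members and 0.07 (0.04 to 0.11) in other GABA nuclei, and Unc5c -1.04 and 0.29 (0.25 to 0.33). Syt1 had -1.70 and 0.10 (0.08 to 0.12). Without the deepest member of each library Unc5c was at 0.37, so its direction in members turned, while Prkd1 was at 1.37, Gpc5 at 0.86, B3galt1 at -0.96 and Syt1 at -1.06. Most of the Syt1 UMIs then left came from 1 member per library, with 29 in HFD and 21 in NFD. In the non-members of the leading cluster B3galt1 was at 0.30 (-0.31 to 0.93). There Prkd1, Gpc5, Unc5c and Syt1 had the sign they had in all members.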

How the results depend on the processing

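No paired analysis was possible because each diet has 1 library. With a sum of 6 UMIs the member share was 1.003% in HFD and 0.263% in NFD, and after thinning to 2000 UMIs 0.141% and 0.117%. Counts of genes whose interval lay beyond a log2 ratio of 0.32, higher and lower, were 17 and 8 with a sum of 6, 0 and 2 after thinning, 4 and 7 with the UMI minimum doubled, and 42 and 124 with no minimum. The lower count was also 8 without the deepest 6% of nuclei and, in an alternative added after seeing the data, 8 without the deepest member of each library. List medians past 0.32 numbered 3 with a sum of 6, without the deepest 6% of nuclei and without the deepest members, and 2 without nuclei that had a glutamate transporter UMI, with totals without Malat1, mitochondrial and ribosomal protein genes, with median ratio scaling and with the minimum doubled. Against other GABA nuclei, 174 genes were 2-fold higher and 1825 lower with 1 CPM added, and 1356 were lower after thinning. With a larger set of variable genes 100% of HFD members fell in the leading cluster. The ratio of Cntn5 turned to 0.36 with a sum of 6, and that of Cdh18 to 0.50 without the deepest 6% of nuclei and to 0.0861 without the nucleus richest in it. The cause of these shifts was not tested.

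Over 10 alternatives, mt-Rnr2 stayed between -2.14 and -1.36 and mt-Cytb between -2.09 and -1.18, past 0.32 by the interval in each. Htr2c ran between 0.56 and 0.93 and Gpc5 between 0.43 and 1.26, past it in 8, and Kcnip4 and Pcdh9 were past it in 5. The limits are 14 NFD nuclei from 1 pooled library and a rule that takes fewer shallow nuclei.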

Other observations

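The same Nr4a2, B020031H02Rik and Satb1 requirement was met by 11 nuclei with the opposite transmitter signature, 6 HFD and 5 NFD, in which Slc17a6, Slc17a7 and Slc17a8 outnumbered the inhibitory genes. Nr4a2 was at 321 CPM in the HFD and 388 CPM in the NFD nuclei of this kind, but Satb1 was at 50.1 and 29.8 CPM, and B020031H02Rik and Dpp4 had no UMI. Ntng1 was at 231 and 29.8 CPM and Adam12 at 60.2 and 0 CPM. Syt1 was low here too, at 140 and 89.5 CPM, beside Snap25 at 1093 and 746 CPM, while Gabrg3, at 134 and 520 CPM in members, was at 1163 and 1730 CPM.

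Dopaminergic nuclei were taken by at least 1 UMI of Th, at least 4 over Th, Slc6a3 and Slc18a2, and no UMI of Tph2. They numbered 42 in HFD and 39 in NFD, and Slc6a3 was found in 11 and 9 of them. They had Nr4a2 at 49.0 and 40.2 CPM, in 22 and 10 nuclei, and no comparison with members is made because the rule required Nr4a2 of members alone. Satb1 was at 51.6 and 42.8 CPM, and Dpp4 had 1 and 0 UMIs. Syt1 was at 2656 and 3105 CPM in them.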
